A study of Homo sapiens with 14 samples.

Results

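Expandable pancreatic progenitors (ePPs) at an early and a late passage were compared in 4 of the 14 libraries of the series. They are the 2 libraries titled ePP-P9 and the 2 titled ePP-P21, which name ePPs at passage 9 and at passage 21, and were chosen by these titles. All 4 come from the same labelled batch and from MEL1, an established human embryonic stem cell line that the methods name as MEL1 INS GFP/W, so every library carried a GFP reporter in 1 allele of INS. The ePPs were kept on feeder cells in EF6I medium, which holds EGF, bFGF, the TGFβ receptor inhibitor 616452 and 1 μM of the BET bromodomain inhibitor I-BET151, so both groups carried the same growth factors and inhibitors and differed in the time spent in them. Neither the labels nor the methods say whether the replicates were separate cultures, so that p-values measure the spread between these libraries, which may be technical, in progenitors of a single line. The question was which protein-coding programmes stayed constant and which drifted over the passages.

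Pancreatic progenitors are cells of the embryonic foregut endoderm that can form the ductal, acinar and endocrine cells of the pancreas. The transcription factors PDX1 and NKX6-1 mark those able to make β cells, and the onset of NEUROG3 marks the step out of the dividing state into the endocrine lineage. Cultures that divide for long are known to face DNA damage and cell cycle arrest through p53, and may shift between lineages or toward faster growth.

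Values are TPM, a measure of transcript abundance scaled for transcript length and library size. A difference is given as ePP-P21 minus ePP-P9 on the log2(TPM + 1) scale, after each library was centred on its median over the tested genes, and is called the centred log2 difference. Of 15822 tested genes, 12298 were protein-coding. The replicates of a group had a squared correlation of 0.976 (ePP-P9) and 0.97 (ePP-P21) over these protein-coding genes, and the 4 pairs of an early with a late library had 0.95 to 0.957. Genes more than 1 log2 unit apart made up 1.76% and 1.92% of the genes between replicates and 3.19% to 3.99% between passages, so most of the transcriptome differed by less than that between any pair of these libraries.

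At the thresholds of the study (limma, adjusted p under 0.05 and a log2 difference beyond 1 in size), 0 protein-coding genes were higher and 0 were lower, against 1032 higher (8.39%) and 2370 lower (19.3%) at an unadjusted p under 0.05. Over all tested genes, 1497 (9.46%) and 2679 (16.9%) reached that unadjusted p. A wider rule, an adjusted p under 0.10 at any size, is therefore used below wherever a gene is said to have risen, fallen or passed. By this rule 443 protein-coding genes rose (3.6% of those tested) and 901 fell (7.33%). A gene is called held when its mean was at least 5 TPM and the 95% interval of its difference lay within 0.5 log2 units of 0, and 5011 of 10114 such genes were held (49.5%). Small but regular differences can both pass and be held. The plot of difference against expression level shows the genes that fell as a shallow band among the more abundant transcripts, whereas those that rose were spread over larger differences.

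**Figure D1:**
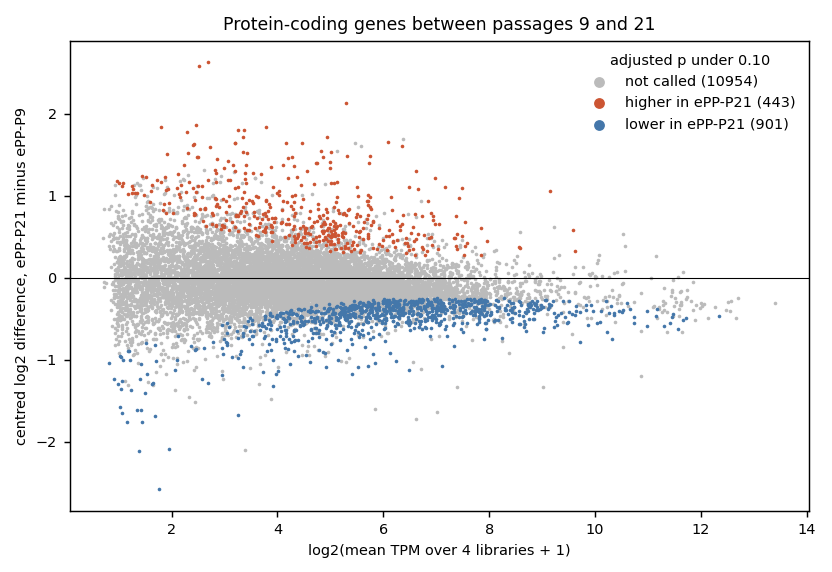
Each point is a tested protein-coding gene, with the log2 of its mean TPM plus 1 over the 4 libraries on the x axis and its centred log2 difference between ePP-P21 and ePP-P9 on the y axis. The 443 genes higher at an adjusted p under 0.10 are orange, the 901 lower genes are blue, and most of the lower genes lie between 0 and -1.

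The scale sets the balance of these calls. The median difference of all tested genes was -0.07 after centring and 0.13 on the values as deposited, a shift of about 0.2 that applies to every gene. Over all tested genes, 629 were higher (3.98%) and 988 lower (6.24%) after centring, 1084 and 142 as deposited, 449 and 209 after quantile normalization, and 603 and 731 when protein-coding genes alone were kept. As deposited, 169 genes were higher and 9 lower at the study thresholds. The smallest difference among the 1344 protein-coding genes that passed was 0.251 in size, which is beyond this shift, so leaving out the centring could not turn the sign of any of them. Passing the wider rule also depended on single libraries: without ePP-P9 replicate 1 there were 0 calls in either direction, without ePP-P9 replicate 2 there were 0 higher and 1 lower, without ePP-P21 replicate 1 there were 196 and 555, and without ePP-P21 replicate 2 there were 0 and 2.

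Gene lists were then read against the protein-coding background, whose median centred difference was -0.09. Lists of the nucleus, of p53 targets and of the basement membrane lay above it, and lists of energy metabolism, ribosomes, histones and cell division lay below it. The lists are described by counts and medians and were not tested as lists. Of the 49 lists with at least 10 tested members, 15 had a median below 0 and 14 a median above 0 under all 4 scalings, and 20 changed sign with the scaling.

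**Figure D2:**
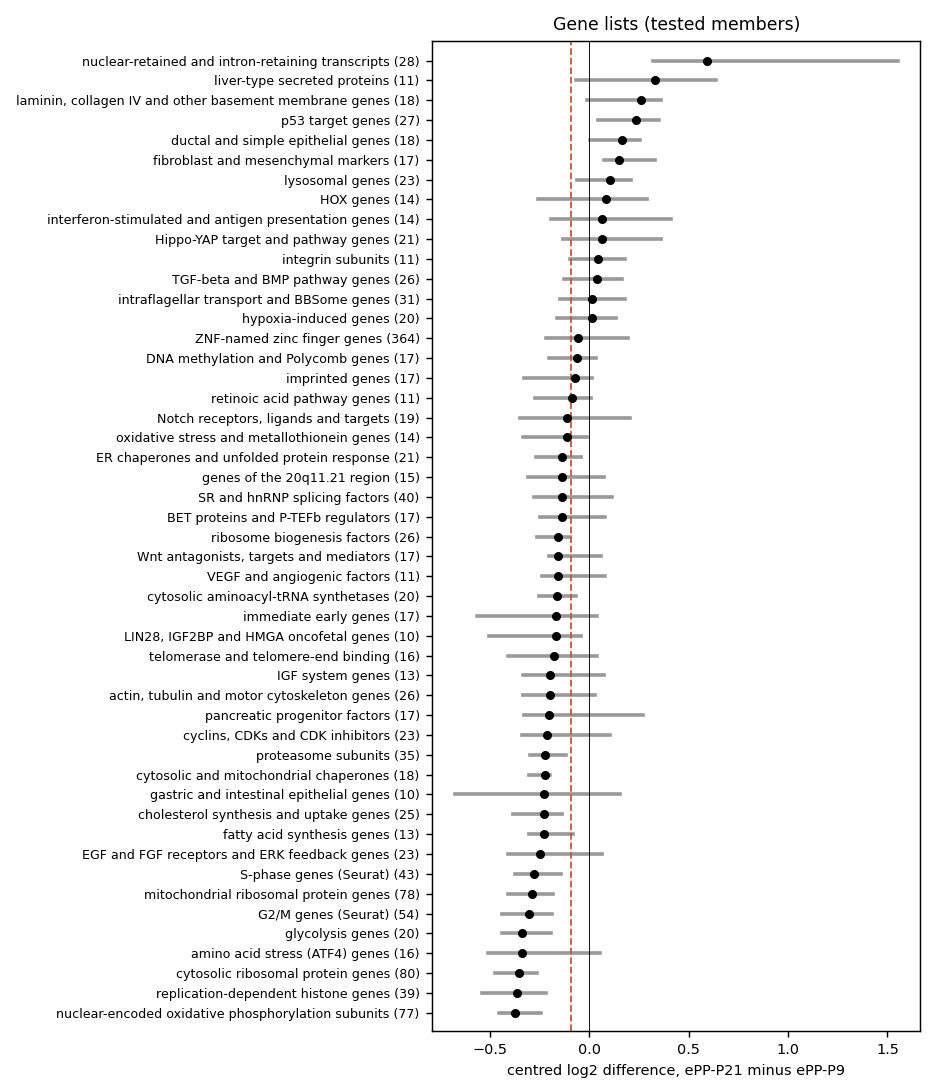
Black points give the median centred log2 difference (x axis) of the tested members of each gene list, grey bars span the middle 50% of the members, and the number of tested members stands in brackets. The dashed line is the median of all tested protein-coding genes at -0.09. The nuclear-retained transcripts lie highest at 0.59 and the oxidative phosphorylation subunits lowest at -0.37.

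The factors that define pancreatic progenitors were expressed at both passages. PDX1 (ENSG00000139515, chromosome 13, 27920000 to 27926313, GRCh38), which is required for the pancreas to form, was at 133 and 130 TPM in the early libraries and at 124 and 134 TPM in the late ones. These values overlapped, the centred difference was -0.23 (95% interval -0.40 to -0.06, adjusted p = 0.123), and the gene was held. NKX6-1 (ENSG00000163623, chromosome 4, 84491985 to 84499292), which directs progenitors toward β cells, was at 204 and 213 TPM against 176 and 210 TPM. Its TPM overlapped between the groups, and it passed as lower on the centred scale only (-0.32, interval -0.50 to -0.15, adjusted p = 0.0872; -0.12 as deposited, adjusted p = 0.555). SOX9, a regulator of progenitor maintenance, had 133 and 136 TPM at the early passage and spread from 106 to 161 TPM in ePP-P21. Its difference of -0.24 was thus less than the spread between the late libraries (adjusted p = 0.385). The overlap of PDX1, NKX6-1 and SOX9 holds for TPM only. On the centred scale, both late libraries lay below both early ones for each of them, as for 41.2% of all protein-coding genes.

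Of 17 tested progenitor factors, 2 rose (11.8%, against 3.6% of all protein-coding genes) and 4 fell (23.5%, against 7.33%). Of the 14 with a mean of at least 5 TPM, 6 were held (42.9%, against 49.5%). Held genes included PDX1, GATA4, GATA6, HNF4A and FOXA1, among them the endodermal GATA and FOXA pioneer factors. GATA4 was at 116 and 114 TPM and then at 117 and 136 TPM, and GATA6 was at 133 and 129 TPM and then at 135 and 154 TPM. Both GATA genes therefore stayed within 0.5 log2 units at high expression.

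The 4 factors that fell did so by less than 0.5 log2 units. FOXA2, another pioneer factor, was at 90 and 91.5 TPM in the early libraries and at 67.5 and 88.3 TPM in the late ones (-0.44, adjusted p = 0.096). MNX1, needed for the dorsal pancreatic bud, was at 78 and 84.3 TPM and then at 68.5 and 80.7 TPM (-0.33, adjusted p = 0.0873). GLIS3 was the fourth, at -0.46 (adjusted p = 0.0979). As deposited, FOXA2, MNX1 and GLIS3 no longer passed (adjusted p = 0.385, 0.566 and 0.312), and neither did NKX6-1, so that none of the 4 falls passed without centring.

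ONECUT1 and HHEX moved the other way. ONECUT1 (also named HNF6; ENSG00000169856, chromosome 15, 52755053 to 52791078) acts upstream of PDX1 and NEUROG3, and was at 12.4 and 12.3 TPM in the early libraries and at 22.3 and 29.6 TPM in the late ones. HHEX, which patterns the ventral foregut between liver and pancreas, was at 16.8 and 21.5 TPM and then at 32.7 and 47 TPM. Both late libraries lay above both early libraries for each gene, with differences of 0.79 (interval 0.46 to 1.12, adjusted p = 0.0676) and 0.80 (0.36 to 1.24, adjusted p = 0.0873). ONECUT2 had 8.28 and 13.5 TPM against 17.6 and 24.8 TPM, and its difference of 0.71 did not pass (adjusted p = 0.155). The low-level factor NKX6-2 had the largest difference of the list in size, -0.98, and did not pass either (adjusted p = 0.135).

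**Figure D3:**
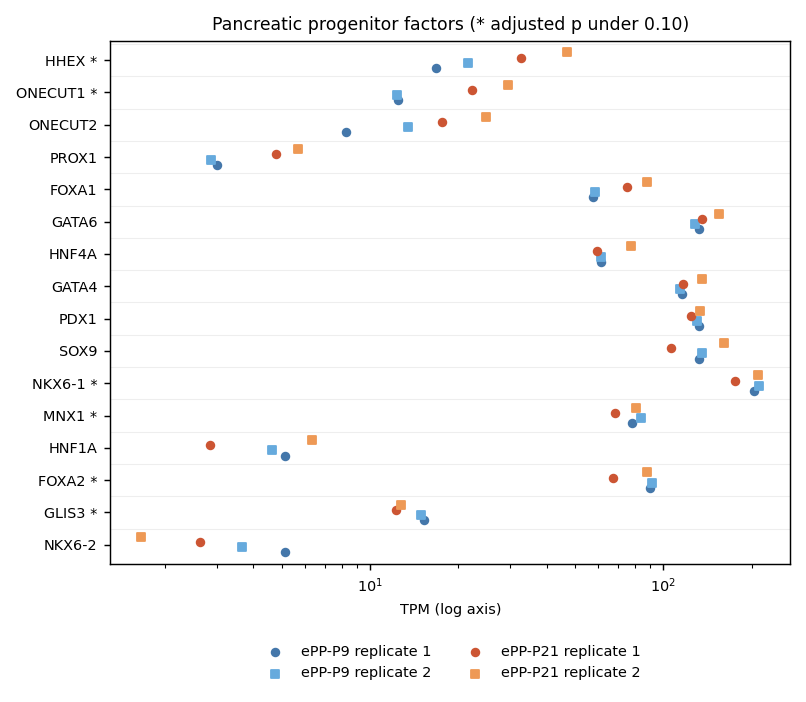
TPM (log axis) of 16 tested progenitor factors, with blue points for ePP-P9 replicate 1 and 2 and orange points for ePP-P21 replicate 1 and 2, ordered by centred log2 difference. ONECUT1 and HHEX lie higher in both ePP-P21 libraries, whereas PDX1, NKX6-1 and SOX9 have early and late points that overlap.

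Key genes of endocrine commitment were near 0 at both passages. NEUROG3 was between 0.153 and 0.409 TPM and NKX2-2 between 0.137 and 0.376 TPM over the 4 libraries, and INS, which carries the reporter in 1 allele, was at 0.0104 TPM or less, so none of them was tested. Of 30 endocrine genes, 7 were tested and 1 rose. On the centred scale, 4 of the 7 were higher in both late libraries, where 20.1% of all protein-coding genes were. The summed level of the list was 208 and 228 TPM and then 304 and 297 TPM, most of it CPE, a carboxypeptidase of hormone processing, which was held at 177 and 196 TPM against 259 and 242 TPM (0.22, adjusted p = 0.234). The gene that rose was RFX6, a factor of endocrine precursors and foregut endoderm, at 16.3 and 17.5 TPM and then at 27.9 and 33.4 TPM (0.61, interval 0.38 to 0.85, adjusted p = 0.065). The pluripotency factor POU5F1 was at 0.0256 TPM or less in every library, and of 16 pluripotency genes 5 were tested and 0 passed.

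Single genes of neighbouring lineages passed in either direction. Among liver-type secreted proteins (11 of 18 tested), the fibrinogen chains FGA and FGB and the adhesion protein vitronectin (VTN) rose, whereas the apolipoprotein APOA2 fell. FGB was at 2.2 and 1.72 TPM in the early libraries and at 10.2 and 8.44 TPM in the late ones, a difference of 1.60 (interval 1.02 to 2.17, adjusted p = 0.0648), and FGA had a difference of 1.77 from a mean of 1.01 TPM. VTN was far more abundant, at 125 and 136 TPM and then at 249 and 234 TPM (0.68). AFP, a fetal liver and endoderm protein, was held at 84.9 and 96.1 TPM against 105 and 113 TPM.

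Among ductal and simple epithelial genes (18 tested), the chloride channel gene CFTR and HES4 rose and the keratin KRT19 fell. CFTR was at 17.6 and 22.9 TPM and then at 38 and 40.7 TPM, a difference of 0.73 (adjusted p = 0.0729). The gastric trefoil peptides TFF1 and TFF2 were the 2 of 10 tested gut genes that fell, with differences of -0.93 and -1.13, and TFF1 went from 8.44 and 9.18 TPM to 4.57 and 5.31 TPM. The intestinal regulator CDX2 was held near 95 TPM in all 4 libraries (95, 94.2, 94.6 and 95.4 TPM). In bulk RNA, a change in the number of cells of a type and a change in RNA per cell cannot be told apart.

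Many genes of cell division fell, by small amounts. Of 54 G2/M genes, those used in mitosis, 0 rose, 19 fell (35.2%, against 7.33% of all protein-coding genes) and 23 were held. The median difference was -0.30 and lay between -0.30 and -0.10 under the 4 scalings. On the centred scale, 48 of the 54 lay lower in both late libraries than in both early ones, where 41.2% of all protein-coding genes did. Both strands of each promoter were searched for the cell cycle homology region (CHR, TTTGAA) and the CCAAT box, which are elements known from promoters of mitotic genes. The windows are RefSeq promoters (GRCh38.p14) of 300 bases, 250 before the transcript start and 50 after it. CHR letters were in 31 of the 45 G2/M promoters with an entry (68.9%) and in 9.48% of the 9783 promoters of tested protein-coding genes, and CCAAT was in 68.9% and 37.5%. Over all protein-coding genes that fell, CHR letters were in 11.3% of 714 promoters. Promoters of 3 genes that fell are shown 5′ to 3′ on the strand of the gene to illustrate these elements, with CHR (TTTGAA, or TTCAAA on the other strand) and CCAAT in capitals. They were picked because they hold both, and the window of NEK2, a mitotic kinase that also fell (-0.53, adjusted p = 0.0892), held CCAAT and no CHR letters. The match is a description of letters and not of binding. CDCA3 lies at chr12:6851237-6851536 (minus strand), CDC20 at chr1:43358731-43359030 (plus strand) and TUBB4B at chr9:137241037-137241336 (plus strand).
CDCA3: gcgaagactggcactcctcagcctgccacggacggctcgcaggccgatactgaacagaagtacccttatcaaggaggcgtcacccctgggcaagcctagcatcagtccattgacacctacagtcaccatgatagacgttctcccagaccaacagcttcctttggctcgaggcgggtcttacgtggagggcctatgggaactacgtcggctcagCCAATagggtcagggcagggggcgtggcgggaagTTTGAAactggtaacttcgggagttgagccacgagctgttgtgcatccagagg
CDC20: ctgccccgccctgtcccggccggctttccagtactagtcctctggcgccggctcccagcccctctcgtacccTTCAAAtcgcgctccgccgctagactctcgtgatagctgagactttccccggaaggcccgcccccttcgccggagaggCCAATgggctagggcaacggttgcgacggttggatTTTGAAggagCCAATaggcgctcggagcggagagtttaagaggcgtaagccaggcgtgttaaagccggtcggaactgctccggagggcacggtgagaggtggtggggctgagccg
TUBB4B: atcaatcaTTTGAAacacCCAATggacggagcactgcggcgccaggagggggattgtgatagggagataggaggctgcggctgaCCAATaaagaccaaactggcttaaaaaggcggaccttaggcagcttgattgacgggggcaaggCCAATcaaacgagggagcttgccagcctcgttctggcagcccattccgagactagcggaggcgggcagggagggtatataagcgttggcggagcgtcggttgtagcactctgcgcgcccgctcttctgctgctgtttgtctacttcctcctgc

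CDC20, which activates the anaphase-promoting complex, was at 106 and 110 TPM in the early libraries and at 80.3 and 82.7 TPM in the late ones, a difference of -0.61 (interval -0.78 to -0.43, adjusted p = 0.0648). CDCA3, a trigger of mitotic entry, was at 20.9 and 22.6 TPM and then at 14.8 and 17 TPM (-0.64). TUBB4B, a β-tubulin, was at 359 and 378 TPM and then at 277 and 323 TPM (-0.51). In each of these genes both late libraries lay below both early ones. The largest falls were those of the spindle checkpoint kinase TTK (40.5 and 35.5 TPM, then 23.8 and 25.7 TPM; -0.80, interval -1.10 to -0.51) and of BIRC5, the survivin subunit of the chromosomal passenger complex (74.4 and 79.8 TPM, then 48.7 and 55 TPM; -0.77, -0.94 to -0.60), both at an adjusted p of 0.0648. MKI67, which encodes the proliferation antigen Ki-67, was held instead, at 12.5 and 13.3 TPM and then at 13.4 and 13.8 TPM.

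The S-phase list had the same direction. Of 43 genes of a published S-phase set, 0 rose and 12 fell (27.9%, against 7.33% of all protein-coding genes). Most of the set acts in DNA replication, and 18 of 40 were held. The median was -0.28 (-0.28 to -0.07 over the scalings). Those that fell included the ribonucleotide reductase subunits RRM1 and RRM2, the helicase subunits MCM5, MCM6 and MCM7 and the licensing factor CDC6. RRM2 was at 111 and 114 TPM in the early libraries and at 87.1 and 93.5 TPM in the late ones (-0.52, adjusted p = 0.0648). PCNA, the sliding clamp, was held at 351 and 370 TPM against 346 and 385 TPM. The E2F letters TTTGGCGC or TTTCCCGC were in 14 of 33 S-phase promoters (42.4%) and in 3.79% of all those searched. Among 23 cyclins, CDKs and CDK inhibitors, 1 rose and 6 fell (26.1%, against 7.33% of all protein-coding genes). CCNA2 (cyclin A) fell by 0.57, and CDKN2A, the arrest gene that often rises in aged cultures, fell from 22.8 and 23.3 TPM to 19.2 and 18.7 TPM (-0.48, adjusted p = 0.0897; -0.27 as deposited, adjusted p = 0.233). The retinoblastoma relative RBL2, a subunit of a complex that represses cell cycle genes, rose by 0.43 (adjusted p = 0.0973).

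Some targets of p53 rose. Of 27 tested, 5 rose (18.5%, against 3.6% of all protein-coding genes), 0 fell and 22 did not pass. Of the 26 at 5 TPM or more, 9 were held. On the centred scale, 16 lay higher in both late libraries, where 20.1% of all protein-coding genes did. The median was 0.23 (0.23 to 0.44 over the scalings, and 0.22 to 0.31 when any library was left out). MDM2 (ENSG00000135679, chromosome 12, 68808177 to 68845544), the ubiquitin ligase that degrades p53, was at 31.8 and 36.1 TPM in the early libraries and at 57.2 and 70.3 TPM in the late ones. Its difference of 0.68 (interval 0.44 to 0.92, adjusted p = 0.0648) was the largest of the list. ZMAT3, a p53-induced RNA-binding protein, rose by 0.51 (14.5 and 13.4 TPM, then 22.4 and 24.6 TPM), and TP53INP1, a cofactor in stress responses, rose by 0.42. The DNA damage genes GADD45A and XPC rose by 0.38 and 0.32.

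Some genes of cell cycle arrest and cell death on the list did not pass. CDKN1A, the p21 inhibitor of cyclin-dependent kinases, was at 140 and 148 TPM and then at 182 and 186 TPM. Both late values were higher, but relative to the library medians the gene was held at 0.15 (interval -0.03 to 0.32, adjusted p = 0.238). The death genes BAX and BBC3 did not pass. The stress kinase PLK3 and SPATA18, a gene of mitochondrial quality control, had differences of 0.63 and 0.57 that did not pass (adjusted p = 0.115 and 0.12). A p53 half-site was found in 3 of 22 promoters of the list (13.6%) and in 5.19% of all. The windows of MDM2, ZMAT3 and XPC, which rose, held 0 half-sites, so promoter windows are not shown.

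**Figure D4:**
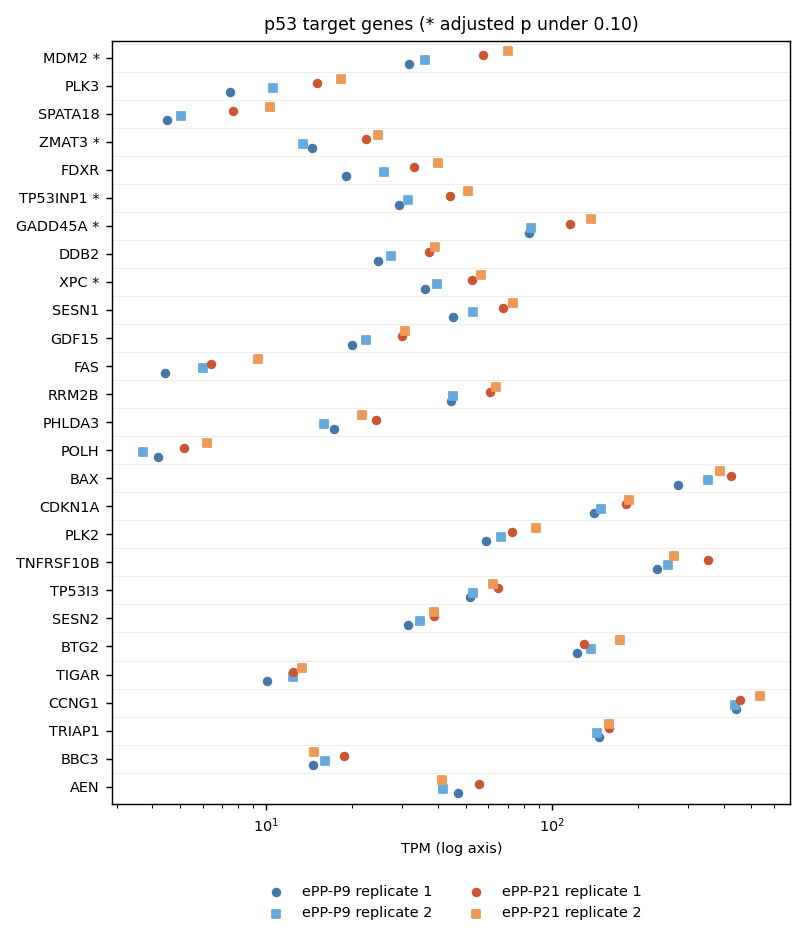
TPM (log axis) of the 27 tested p53 target genes in ePP-P9 replicates 1 and 2 (blue) and ePP-P21 replicates 1 and 2 (orange), ordered by centred log2 difference. Asterisks mark the 5 genes that rose, and MDM2 at the top goes from 31.8 and 36.1 TPM to 57.2 and 70.3 TPM.

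The medium feeds the EGF and FGF receptors, whose signal runs through ERK and induces its own inhibitors. FGFR3 rose from 77.2 and 86.9 TPM to 163 and 157 TPM (0.75, interval 0.51 to 0.99, adjusted p = 0.0648), whereas EGFR was held at 14.6 and 15.4 TPM against 15.3 and 17.1 TPM and FGFR4 was held as well. The feedback inhibitor SPRY1 went from 46.3 and 41 TPM to 20.6 and 29.6 TPM and thus fell by 1.00 on the log2 scale (interval -1.42 to -0.58, adjusted p = 0.0676). ETV5, an ERK-induced ETS factor, and the phosphatase DUSP5 fell with differences of -0.50 and -0.34. SPRY2, SPRY4 and ETV4 had differences from -0.49 to -0.39 that did not pass. ETV1 had the largest difference of the list, -1.37, at 4.33 and 5.02 TPM against 2.75 and 0.696 TPM, and did not pass either (adjusted p = 0.153).

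Immediate early genes, which respond within minutes to growth factors and handling, separated the late replicates from each other. FOS was at 145 and 168 TPM in the early libraries and at 14 and 344 TPM in the late ones, and DUSP1 and EGR1 also had their lowest and highest values in the 2 late libraries. Of 17 tested, only IER2 passed (-1.09, 55.9 and 60.6 TPM, then 24.4 and 39.1 TPM). The median of the list was -0.17 and lay between -0.55 and 0.08 when libraries were left out in turn, so no direction is given. MYC was at 140 and 151 TPM and then at 102 and 152 TPM (-0.43, adjusted p = 0.173).

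Notch signalling keeps progenitors from becoming endocrine, and its genes drifted in different directions. The ligand JAG1 rose from 151 and 155 TPM to 212 and 217 TPM (0.28, adjusted p = 0.0982), and the glycosyltransferase RFNG, which modifies Notch receptors, rose from 24.6 and 26.6 TPM to 59.9 and 48.3 TPM (0.84, adjusted p = 0.0815). The ligand DLL3 and the target HEY1 fell, the latter from 47.7 and 50.9 TPM to 38.3 and 48.6 TPM (-0.39, adjusted p = 0.0973; -0.19 as deposited, adjusted p = 0.471). HES1 was at 88.4 and 90.5 TPM and then at 69.9 and 103 TPM, and NOTCH1 at 23 and 19.9 TPM and then at 20.9 and 21.6 TPM. Neither passed. Over 19 tested genes, 3 rose (15.8%, against 3.6% of all protein-coding genes) and 2 fell (10.5%, against 7.33%).

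In the lists of TGFβ and BMP pathway genes and of BET proteins and P-TEFb regulators, 0 genes passed. The medium holds a TGFβ receptor inhibitor and a BET inhibitor, and no BMP inhibitor is named in it. Of 26 TGFβ and BMP pathway genes, 12 of the 23 at 5 TPM or more were held, a share near the 49.5% of all such genes. The receptor TGFBR1 was at 41.5 and 45.9 TPM and then at 48.2 and 52 TPM, a difference of -0.01 (interval -0.20 to 0.18). Among 17 BET proteins and regulators of the elongation factor P-TEFb, 10 of 16 were held. HEXIM1, which BET inhibitors are known to induce, was at 65.7 and 71.6 TPM in the early libraries and at 68.2 and 75.7 TPM in the late ones (-0.14, interval -0.31 to 0.03). The 7 integrin subunits with a mean of at least 5 TPM were all held, as were 17 of 23 lysosomal genes. Of 35 proteasome subunits, 25 were held and 5 fell (14.3%, against 7.33% of all protein-coding genes). All 35 differences were below 0 on the centred scale, with a median of -0.22 (-0.01 as deposited). On that scale 30 were lower in both late libraries, where 41.2% of all protein-coding genes were.

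In the Hippo pathway, the kinases and the cofactors YAP1 and WWTR1 were held while some targets rose. ANKRD1, a YAP target, was at 99.6 and 105 TPM in the early libraries and at 242 and 262 TPM in the late ones. Its difference of 1.09 (interval 0.94 to 1.24, adjusted p = 0.051) had one of the narrowest intervals among genes that changed this far. AMOTL2 and F3, which are also YAP targets, rose by 0.39 and 0.50. CCN1 had a difference of 0.30 that did not pass (adjusted p = 0.207). In all, 3 of 21 rose (14.3%, against 3.6% of all protein-coding genes) and 0 fell.

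Many genes of energy metabolism fell. Of 77 nuclear-encoded subunits of oxidative phosphorylation, 0 rose and 27 fell (35.1%, against 7.33% of all protein-coding genes). On the centred scale, 71 were lower in both late libraries, where 41.2% of all protein-coding genes were. The median was -0.37, with -0.17 as deposited and -0.18 after quantile normalization. NDUFB3, a subunit of complex I, was at 194 and 194 TPM and then at 123 and 127 TPM (-0.83, interval -1.01 to -0.65, adjusted p = 0.0648). COX7C of complex IV and UQCRB of complex III fell with differences of -0.75 and -0.71. All 37 genes of the mitochondrial genome are listed at 0 in every library, so the subunits they encode could not be examined.

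Glycolysis followed, with 9 of 20 genes lower (45%, against 7.33% of all protein-coding genes) and 0 higher. The median was -0.34 (-0.34 to -0.13 over the scalings). PKM, the last enzyme of the pathway, went from 594 and 602 TPM to 457 and 446 TPM (-0.61, interval -0.83 to -0.39, adjusted p = 0.0648). HK2, which traps glucose, went from 33.9 and 33.1 TPM to 25.2 and 28.9 TPM (-0.51, adjusted p = 0.0687). The glucose transporter SLC2A1 and the lactate enzyme LDHA were held. Against this, PDK1, a kinase that inhibits pyruvate dehydrogenase, rose from 25.6 and 28 TPM to 67.5 and 58.4 TPM (1.00, interval 0.65 to 1.34, adjusted p = 0.0648). VEGFA, the angiogenic factor, rose from 51.4 and 63.9 TPM to 131 and 152 TPM (1.08, interval 0.81 to 1.35, adjusted p = 0.0648). Both are hypoxia-induced genes, but of 20 genes on that list these were the only 2 that rose, P4HA2 fell, and BNIP3, BNIP3L, KDM3A and EGLN1 were among the 8 held.

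Ribosomal protein genes drifted down with a wide dependence on scale. Of 80 tested cytosolic genes, 0 rose and 14 fell (17.5%, against 7.33% of all protein-coding genes). The median of these genes was -0.35 after centring, -0.15 as deposited and -0.02 after quantile normalization. Their share of the listed TPM was 23.3% and 22% in ePP-P9 and 20.9% and 19.9% in ePP-P21.  RPL28 and RPL6, which have the largest differences of the list, were decided by ePP-P9 replicate 1 and did not pass, and many of these genes have near-identical processed copies, so single values are uncertain. Of 78 mitochondrial ribosomal protein genes, 25 fell (32.1%) and 1, MRPS25, rose.

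Some biosynthetic genes fell as well. The serine synthesis enzymes PHGDH and PSAT1 fell by 0.41 and 0.43, and MTHFD2 of the mitochondrial folate pathway had a difference of -0.55. Of the 16 amino acid stress genes in their list, 4 fell (25%, against 7.33% of all protein-coding genes) and 0 rose. The median of that list was -0.34, with -0.13 as deposited. FASN, the fatty acid synthase, fell by 0.57, and 5 of 25 cholesterol genes fell (20%, against 7.33%) while the sterol carrier STARD4 rose by 0.69. NQO1, a quinone reductase induced by oxidative stress, went from 19.1 and 20.6 TPM to 8.69 and 10.7 TPM (-1.18, interval -1.46 to -0.89, adjusted p = 0.0648). In the same list the ferritin FTH1 and the enzyme SOD1 also fell (-0.43 and -0.35). In all, 3 of its 14 tested genes fell (21.4%, against 7.33% of all protein-coding genes) and 0 rose. The list was not uniformly lower, since the ferritin FTL and the enzyme TXNRD1 were held.

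Level and length of transcripts moved with these falls. Among the 2460 protein-coding genes with the highest mean TPM, 19.8% fell and the median difference was -0.19, against 1.63% and -0.03 among the 2460 with the lowest. Among the 2461 with the shortest annotated exon length, 13.8% fell and the median was -0.18, against 3.33% and -0.02 among the 2460 with the longest. Median exon length was 5216 bases over all tested protein-coding genes. It was 2615 for oxidative phosphorylation subunits, 3240 for cytosolic ribosomal protein genes, 3920 for G2/M genes and 5972 for glycolysis genes. The median of the mean TPM was 19.95 over all tested protein-coding genes. For these lists, in the same order, it was 164.7, 2493, 42.95 and 113.8 TPM. Each list thus lay above all protein-coding genes in level, and all but the glycolysis genes were shorter. The part of level and length in the falls was not tested.

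Several genes of the extracellular matrix rose. Of 18 basement membrane genes, 4 rose (22.2%, against 3.6% of all protein-coding genes) and 0 fell. The median was 0.26 (0.26 to 0.46 over the scalings). The laminin chains LAMA5, LAMB2 and LAMA1 and the collagen IV chain COL4A6 passed, and LAMA5 went from 22.4 and 20.8 TPM to 36.9 and 39.1 TPM (0.58, interval 0.33 to 0.84, adjusted p = 0.0687). FN1, fibronectin, went from 559 and 564 TPM to 941 and 990 TPM (0.58, interval 0.40 to 0.75, adjusted p = 0.0648). The fibroblast markers, which feeder or mesenchymal cells would bring, summed to 2241 and 2281 TPM in ePP-P9 and 3016 and 3135 TPM in ePP-P21, most of it VIM and FN1. Of 26 such markers, 17 were tested, 2 rose (FN1 and COL6A1) and 1, S100A4, fell. On the centred scale, 14 of the 17 lay above 0. In both late libraries 8 were higher and 2 lower, against 20.1% and 41.2% of all protein-coding genes. The median was 0.15, against -0.09 for all protein-coding genes, though it ranged from -0.13 to 0.49 when libraries were left out in turn. SPARC, a matrix protein of such cells, was at 109 and 118 TPM and then at 186 and 165 TPM (0.41, adjusted p = 0.125). The part of other cells in the matrix differences was not tested. COL1A1 was at 9.86 and 7.69 TPM and then at 15.7 and 8.96 TPM (0.20, adjusted p = 0.735), and DCN, THY1, PRRX1 and TWIST1 stayed under 1 TPM in all 4 libraries. The endothelial marker CDH5 was listed at 0 in all 4.

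Transcripts known to be retained in the nucleus or to keep introns were described as a list that was chosen in part because members such as SEC31B and MAMDC4 were known to be higher in these data, so its counts are not independent evidence of a direction. Of 28 tested members, 16 rose and 0 fell. The list summed to 2381 and 3024 TPM in ePP-P9 and to 4156 and 4577 TPM in ePP-P21. Its nuclear long noncoding RNA MALAT1 was at 33.8 and 43.3 TPM and then at 125 and 202 TPM (1.82, adjusted p = 0.0648). CCNL2, a cyclin of splicing speckles, was at 28 and 43.2 TPM and then at 125 and 124 TPM (1.61). Files of TPM do not separate spliced from unspliced RNA, and the part of nuclear RNA or RNA quality in the other differences was not tested.

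SEC31B (ENSG00000075826, chromosome 10, 100486646 to 100519864), a coat protein of vesicles leaving the endoplasmic reticulum, was at 0.431 and 0.74 TPM in the early libraries and at 10.1 and 10.4 TPM in the late ones. Its difference of 2.63 (interval 2.15 to 3.11, adjusted p = 0.051) was the largest among protein-coding genes that rose. The gene reached the filter of 1 TPM only in the late libraries. It was thus tested only because it was high there, and its p-value and rank are no independent evidence. The other 11 genes named by size were MAMDC4 (2.13), GOLGA8B, PABPC1L, MAP2K5, PAQR6, RSRP1, CCDC183, GOLGA8A, MST1, CAPRIN2 and SFI1, with differences down to 1.63. MAP2K5, the kinase MEK5 that activates ERK5, was at 3.13 and 3.09 TPM and then at 15 and 16.1 TPM (1.80, adjusted p = 0.0617). GOLGA8A, GOLGA8B and MST1 have near-identical copies, and CCDC183, MAMDC4, RSRP1 and SFI1 overlap other annotated genes, so that without a stated use of strand their reads may be shared.

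The 12 falls named by size, among passing genes with no overlap and at least 10 TPM in the higher group, ranged from -1.67 to -1.05. FOXP1 (ENSG00000114861, chromosome 3, 70954693 to 71583978), a forkhead transcription factor, went from 12.6 and 13.6 TPM to 4.73 and 3.51 TPM (-1.67, interval -2.21 to -1.14, adjusted p = 0.0648). SHISA2 (chromosome 13, 26044597 to 26052016), which restrains FGF and Wnt receptors in the endoplasmic reticulum, went from 115 and 119 TPM to 57.6 and 65.3 TPM (-1.12, interval -1.28 to -0.96, adjusted p = 0.051). BOLA3, an assembly factor for iron-sulphur clusters of mitochondria, went from 53.5 and 56.8 TPM to 28.3 and 27.3 TPM (-1.17). In all 3 genes both late libraries lay below both early ones. EVA1B, NQO1, KLHL22, S100A4, IER2, THOC3, RABL6, TTYH1 and NSL1 completed the group. RABL6 lies beside CCDC183, which rose, and both overlap the antisense gene CCDC183-AS1, so their opposite changes are uncertain.

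Long culture of stem cell derivatives can select for gained chromosomes, so the genes were also read by chromosome. Median centred differences of the protein-coding genes lay between -0.13 on chromosome 19 and -0.03 on chromosome 13, around -0.09 for all. The share that rose was highest on chromosome 20 (7.51%) and the share that fell was highest on chromosome 22 (13%). Of 15 tested genes in the 20q11.21 region, a common gain in stem cell lines, 0 rose and 3 fell (20%, against 7.33% of all protein-coding genes). The survival gene BCL2L1 of this region was held at 106 and 132 TPM against 143 and 148 TPM.

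**Figure D5:**
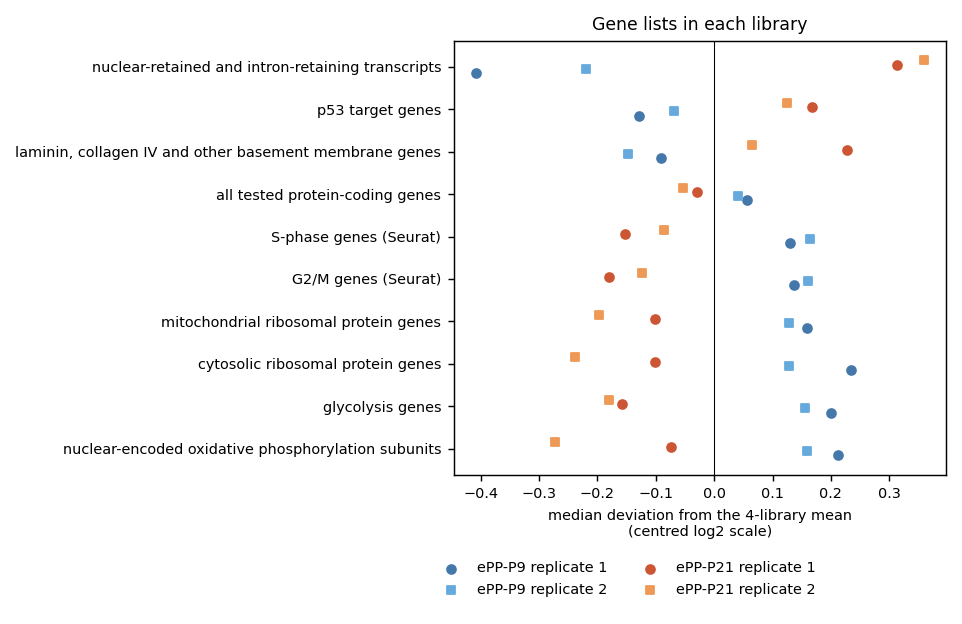
For 9 gene lists and all tested protein-coding genes, each point is the median over members of the deviation of a library from the mean of the 4 libraries (x axis, centred log2 scale), in blue for ePP-P9 and orange for ePP-P21. Early and late libraries lie on opposite sides of 0 in every row shown, with S-phase at 0.13 and 0.16 against -0.15 and -0.09 and p53 targets at -0.13 and -0.07 against 0.17 and 0.12. The 9 lists are a selection, and some lists not shown do not separate in this way. Fibroblast markers, for example, lay at -0.12 and -0.07 against 0.35 and -0.12.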

How the data were processed

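RNA sequencing was analysed in 2 ePP-P9 and 2 ePP-P21 libraries, grouped by their titles. The authors prepared paired-end libraries (NEBNext Ultra). Reads were aligned to GRCh38 with HISAT2 2.1.0 (per the submitters' processing notes), transcripts were assembled with StringTie, and the deposited values are TPM per gene. Neither the release of the annotation nor any use of strand is given in the sources used here. The authors tested differential expression with DESeq2, which needs counts and was not used here. Each library lists 60624 gene identifiers, of which 60370 matched GENCODE release 44. The listed TPM summed to 908685 to 950752 per library, and 14982 to 16061 genes reached 1 TPM. TPM keeps no read number, so depth is unknown and precision rests on 2 libraries per group.

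Genes that reached 1 TPM in 2 or more of these libraries were kept, transformed as log2(TPM + 1), which understates changes of low genes, and centred on each library's median. limma 3.58.1 in R 4.3.3 (lmFit, eBayes with a trend) gave two-sided tests with Benjamini-Hochberg adjustment over all 15822 genes. The fit was tested on simulated data. The comparison, the 55 gene lists and the wider call rule were chosen with earlier results of these data known. Genes were named by size of change (up to 12 per direction, groups not overlapping and the higher group averaging 10 TPM or more), as the largest, most abundant and most closely held list members, and as 26 progenitor, cell cycle and signalling genes fixed by name. Further list members were named after their values were seen. Some genes are not reported here. Alternatives were other pseudocounts, filters, scalings, sets of libraries and models.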

Additional observations from a re-analysis of the deposited data

How the results depend on the processing

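At the study thresholds (0 higher and 0 lower) the counts became 34 and 9 without a filter on low values, 86 and 13 with a filter of 5 TPM, 169 and 9 without centring, 10 and 3 after quantile normalization, 8 and 2 with protein-coding genes alone, 2 and 3 with the 6 libraries of batch 2, and 0 and 1 with all 10 replicated libraries. Leaving out each library in turn gave 0 higher and 0 to 2 lower. At an adjusted p under 0.10 (629 higher and 988 lower) they became 361 and 580 without a filter, 1084 and 142 without centring, 86 and 84 with 6 libraries, 0 and 1 with 10, and 31 and 15 without the intensity trend. Quantile normalization gave 449 higher and 209 lower. Without a library in turn, 0 to 196 were higher and 0 to 555 lower. The number of held genes, 5216, became 513 with 10 libraries and 2549 to 4184 when a library was left out. In those fits the lone library of a group is assumed to vary like the other group. The causes of these shifts were not tested.

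With the replicate number as a block, 0 genes were higher and 0 lower at an adjusted p under 0.10 (3936 at an unadjusted p under 0.05, smallest adjusted p 0.116) and 4901 were held. Replicate 2 minus replicate 1, compared between both passages, had r = -0.00933 across 15822 genes, so the numbers give no pairing. Of 113 named genes that passed, 0 changed direction under any alternative, 112 passed with a pseudocount of 0.1, 100 with protein-coding genes alone, 75 without a filter, 63 without centring, 59 after quantile normalization, 54 without ePP-P21 replicate 1, 29 with 6 libraries and 7 without the trend. With the replicate block, with 10 libraries and without each of the other 3 libraries, 0 of the 113 passed. A change of direction was hardly possible in most of these fits, so its absence shows little. The block, the added libraries and the missing trend leave each difference unchanged. Leaving out the centring shifts it by less than the smallest difference that passed. The unknown depth limits what can be said of genes near 1 TPM.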

Other observations

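Imprinted genes included some of the larger changes. Among tested members, 11.8% rose and 23.5% fell, against 3.6% and 7.33% of all protein-coding genes. Of 17 tested, PLAGL1, a zinc finger regulator of growth, went from 10.8 and 9.5 TPM in ePP-P9 to 26.9 and 31.5 TPM in ePP-P21 (1.23, interval 0.91 to 1.55, adjusted p = 0.0648), and L3MBTL1 also rose (1.51). DLK1, PEG10, MEST and CDKN1C fell, and DLK1, a Notch-related membrane protein, went from 13.3 and 12.3 TPM to 7.7 and 8.48 TPM (-0.81, adjusted p = 0.0676). IGF2 was at 4564 and 3834 TPM and then at 3309 and 3426 TPM, a difference of -0.52 that did not pass (adjusted p = 0.115). The oncofetal regulators HMGA1, HMGA2, IGF2BP1 and LIN28B fell (4 of 10 tested, or 40%, against 7.33% of all protein-coding genes), and 0 rose. HMGA2 went from 277 and 280 TPM to 203 and 248 TPM (-0.52, adjusted p = 0.0654), while LIN28A and TRIM71 were held.

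Among chromatin regulators, the Polycomb methyltransferase EZH1 rose from 7.13 and 7.9 TPM to 17.1 and 18.6 TPM (0.94, interval 0.65 to 1.23, adjusted p = 0.0648), whereas its paralogue EZH2 and DNMT1 did not pass. Of 40 SR and hnRNP splicing factors, HNRNPC and 6 others fell (17.5%, against 7.33% of all protein-coding genes). In that list 3 rose (7.5%, against 3.6%), among them the kinase CLK2 (0.67) and SRSF6 (0.50). In the interferon list, STAT2 and HLA-B rose by 0.62 and 0.63 and the other 12 tested genes did not pass. Retinoic acid pathway genes were held in 7 of 9 cases, with ALDH1A1 at 438 and 466 TPM and then at 528 and 551 TPM. The neuronal gene STMN2 was at 0.0603 and 0.107 TPM in the early libraries and at 2.14 and 1.53 TPM in the late ones (adjusted p = 0.0925). It reached the filter of 1 TPM only in the late libraries, so it was tested only because it was high there. STMN2 was the only 1 of 6 tested neuronal markers that passed. Of the 6, 4 lay below 0 on the centred scale, the median was -0.18 and TUBB3 was held. ELAVL4 was listed at 0 in all 4 libraries.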
